A study of Homo sapiens with 6 samples.

Results

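The 9 genes of MHC class I antigen presentation described here were measured in IMR90 fibroblasts, an established line of normal diploid cells from human lung, under RAS signalling. They were the class I heavy chains HLA-B, HLA-C, HLA-E and HLA-F, the light chain B2M, the peptide transporter subunits TAP1 and TAP2, the loading factor TAPBP and the peptide-trimming enzyme ERAP1. Each was found by its symbol in 1 of the 58219 gene rows of the deposited table, 0 symbols were repeated, and 8 of the 9 had enough reads to be tested. All cells expressed ER-RAS, an oncogenic RAS (G12V, per the series' design text) fused to a hormone-binding part of the oestrogen receptor, and all received 100 nM 4-hydroxytamoxifen (4OHT), which switches the fusion on. The treatment lasted 72 h in 3 libraries, which the labels call committed cells, and 30 h in the other 3, which they call uncommitted controls. Sample titles state these times as 3 days and 1.5 days. Since 1.5 days is longer than 30 h, the sources differ on the shorter time. The hours, from the treatment protocol and the column names, are used here. There is no untreated group and no group held at 72 h without commitment among these samples, so commitment and time under RAS cannot be told apart. The labels do not say whether replicates A, B and C were separate cultures, and p-values therefore describe only how these libraries vary, which may be technical.

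MHC class I molecules display peptides from inside a cell on its surface, where CD8 T cells and natural killer cells read them. Proteasomes cut proteins into peptides, TAP1 and TAP2 together carry these into the endoplasmic reticulum, ERAP1 trims them, and TAPBP (tapasin) bridges the transporter to an empty heavy chain paired with B2M. Interferons and NF-kB raise transcription of the pathway in many cells, through short elements upstream of its genes, together with the coactivator NLRC5. Fibroblasts carry class I molecules without stimulation, and senescent fibroblasts are known to be recognised by immune cells.

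The promoters are shown because elements shared by these genes are the usual account of their joint control. Any link between these elements and the values below was not tested. RefSeq gave windows on GRCh38.p14, from 250 bases before the start to 50 after it, for 8 of the 9 genes. The 5 printed are those of the most abundant light and heavy chains and of both transporter subunits, from chr6:31357130-31357429 (minus strand), chr6:31272043-31272342 (minus), chr15:44711267-44711566 (plus), chr6:32853655-32853954 (minus, the first of its 2 windows) and chr6:32838690-32838989 (minus). Capitals mark matches on either strand to 4 motifs, GGG followed by any 2 bases, TT, any base and CC for NF-kB, AANNGAAA for interferon regulatory factors (IRF), TTCNNNGAA for the interferon gamma activated site (GAS) and TGATTGG for the Y box bound by NF-Y.
HLA-B: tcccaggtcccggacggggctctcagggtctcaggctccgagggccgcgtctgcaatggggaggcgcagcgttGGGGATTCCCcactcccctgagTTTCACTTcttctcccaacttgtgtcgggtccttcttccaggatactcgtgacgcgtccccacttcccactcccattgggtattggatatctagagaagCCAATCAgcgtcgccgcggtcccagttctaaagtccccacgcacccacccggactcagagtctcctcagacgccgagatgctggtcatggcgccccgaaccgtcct
HLA-C: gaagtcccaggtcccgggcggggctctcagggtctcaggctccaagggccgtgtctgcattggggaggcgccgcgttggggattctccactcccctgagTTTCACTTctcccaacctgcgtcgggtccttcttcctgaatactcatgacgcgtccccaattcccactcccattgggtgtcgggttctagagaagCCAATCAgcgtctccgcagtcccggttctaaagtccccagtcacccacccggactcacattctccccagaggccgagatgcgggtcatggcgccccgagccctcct
B2M: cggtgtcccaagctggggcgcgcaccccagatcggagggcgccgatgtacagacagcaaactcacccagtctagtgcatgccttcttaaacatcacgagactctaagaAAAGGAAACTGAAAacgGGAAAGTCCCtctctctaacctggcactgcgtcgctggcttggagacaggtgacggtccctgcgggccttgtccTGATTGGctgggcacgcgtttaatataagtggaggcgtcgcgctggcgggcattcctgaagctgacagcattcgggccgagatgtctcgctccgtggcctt
TAP1: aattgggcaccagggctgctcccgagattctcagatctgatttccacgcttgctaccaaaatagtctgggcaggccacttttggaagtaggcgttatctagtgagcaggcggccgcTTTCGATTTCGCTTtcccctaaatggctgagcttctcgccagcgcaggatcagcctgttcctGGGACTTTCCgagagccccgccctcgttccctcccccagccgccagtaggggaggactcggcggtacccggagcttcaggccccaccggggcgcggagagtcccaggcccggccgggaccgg
TAP2: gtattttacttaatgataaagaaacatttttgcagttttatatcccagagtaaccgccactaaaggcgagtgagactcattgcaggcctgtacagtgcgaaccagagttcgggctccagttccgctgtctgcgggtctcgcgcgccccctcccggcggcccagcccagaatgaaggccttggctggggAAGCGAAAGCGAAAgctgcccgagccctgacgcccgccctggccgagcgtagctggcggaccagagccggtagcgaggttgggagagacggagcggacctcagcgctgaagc
The windows of HLA-B and HLA-C were alike, with 88.5% identity over 304 aligned columns, whereas that of B2M had 47.6% identity to HLA-B. An IRF match was found for 8 of 8 genes with a window, against 22.8% of all 35116 promoter windows. The NF-kB motif was found for 5 genes (B2M, ERAP1, HLA-B, TAP1 and TAPBP), against 5.68% of all windows, and the HLA-C window held no match. The Y box was found for 4 (B2M, HLA-B, HLA-C and HLA-F), against 6.95%, and the GAS motif for TAP1 only, in its second window, against 7.66%. In the windows of the members and of 3 immunoproteasome genes, no matches of different motifs overlapped, and 6 pairs of matches of 1 motif did. TAP1 and ERAP1 had 2 windows each, which gave them more room for a match. A match is a string of letters in a window and not a measured binding site.

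The libraries held 13248905 to 15703544 reads assigned to genes at 72 h and 13221152 to 14089651 at 30 h. Mitochondrial genes took 4.23% to 4.83% of reads at 72 h, against 3.56% to 4.06% at 30 h, without overlap. The share of the top 20 genes was 10.8% to 12.7% at 72 h, against 9.73% to 10.0% at 30 h, also without overlap. Values are normalised counts, which are reads divided by a size factor of the library. Fibroblast markers far exceeded those of other cell types, and most were lower at 72 h. Summed over 8 fibroblast markers, there were 55811 to 65824 normalised counts at 72 h, against 168828 to 176645 at 30 h, and 6 of the 8 fell, COL1A1 among them. The 8 leukocyte markers summed to 56.2 to 71.3 at 72 h, against 24.4 to 36.9 at 30 h, with CD3E and NKG7 at 0 throughout. CSF1R was the only one tested and rose (adjusted p = 0.000638, limma), and without it the other 7 summed to 5.11 to 12.6 at 72 h, against 6.10 to 16.6 at 30 h, with overlap. The 3 endothelial markers summed to 11.2 to 20.9 at 72 h, against 6.10 to 14.8 at 30 h, with CDH5 at 0. The 3 epithelial markers summed to 4.20 to 6.98 at 72 h, against 3.90 to 10.2 at 30 h, with SFTPC at 0. The part of these shifts in the results below was not tested. Fewer cells making an RNA and less of it per cell cannot be told apart in such bulk samples. A second principal component, with 6.99% of the variance, set replicate C of both times against A and B.

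The 8 tested class I members changed little between 72 h and 30 h while much of the transcriptome moved. By limma on log2 values, with a Benjamini-Hochberg adjusted p under 0.05 over 13315 genes, 1 of the 8 tested members rose (TAP2), 1 fell (HLA-C) and 6 did not pass. Of all genes tested, 23.6% rose and 25.0% fell, 48.6% in either direction. The median log2 fold change of the 8 was 0.084, against 0.0051 for all genes tested, and the median of the absolute log2 fold changes was 0.13, against 0.28. Expression level was not matched between the 8 and all genes tested. None of the 8 reached a 1.5-fold change, which 25.5% of tested genes did. Each of the 8 had a 95% confidence interval inside 1.5-fold in either direction, from 0.775 at the lowest to 1.46 at the highest. For 3 of them (HLA-B, HLA-E and TAPBP) it lay inside 1.2-fold. Libraries of the 2 times did not overlap for 3 of the 8, 2 higher at 72 h (HLA-B and TAP2) and 1 lower (HLA-C). Of all genes tested, 29.3% were higher and 29.9% lower without overlap, 59.2% in either direction. The 9 members together took 0.158% to 0.179% of all reads at 72 h, against 0.170% to 0.187% at 30 h.

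**Figure D1:**
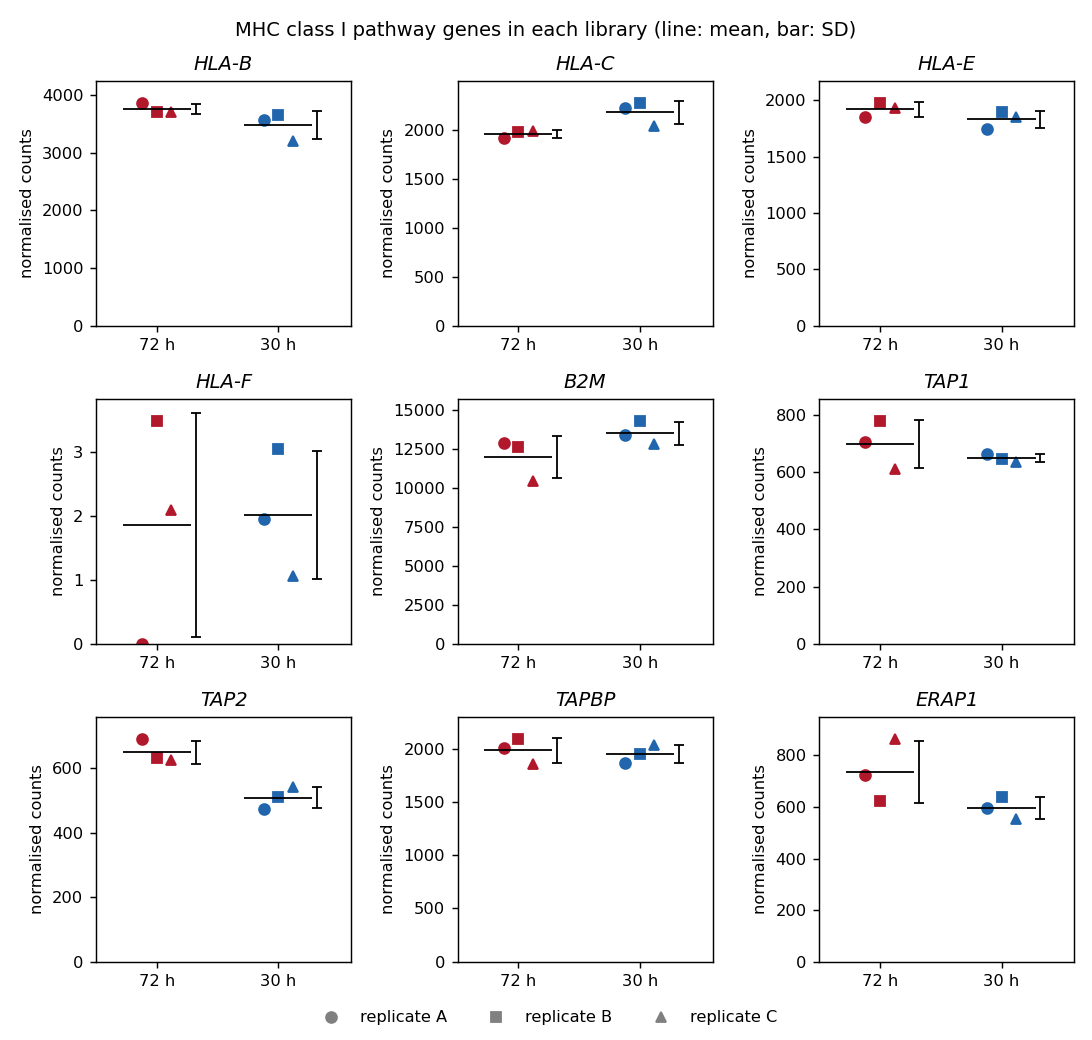
Normalised counts (vertical axes, from 0) of the 9 class I pathway genes in the 3 libraries of 72 h (red, left) and the 3 of 30 h (blue, right). Symbols give the replicate letter, lines the mean and bars the SD; only HLA-B, HLA-C and TAP2 show no overlap between the times, and HLA-F stays at 0 to 3.49.

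Of the heavy chains, HLA-B was the most abundant. HLA-B, a classical chain that presents peptides to CD8 T cells (ENSG00000234745.10, GRCh38 chromosome 6, 31269491 to 31357188, minus strand), had 3862, 3705 and 3708 normalised counts at 72 h in replicates A, B and C, against 3576, 3657 and 3205 at 30 h. The lowest library of 72 h lay only just above the highest of 30 h, and replicate C was the low one at 30 h. Its log2 fold change was 0.11 ± 0.061 (SE), with a 95% interval of -0.023 to 0.25 and adjusted p = 0.151.

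HLA-C, a classical chain that is also a ligand of killer-cell immunoglobulin-like receptors (ENSG00000204525.16, chromosome 6, 31268749 to 31272130, minus strand), had 1913, 1974 and 1981 normalised counts at 72 h, against 2219.7, 2269.6 and 2041 at 30 h. All 3 libraries of 72 h were below those of 30 h. The log2 fold change was -0.15 ± 0.057 (SE), with an interval of -0.28 to -0.026 and adjusted p = 0.0472, just under the threshold. The call was lost without any 1 library except 30 h replicate C, at adjusted p up to 0.177, and DESeq2 run on the same reads gave 0.12. The authors' deposited table gives HLA-C an adjusted p of 0.125.

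HLA-E, a conserved chain that shows leader peptides of other class I chains to the CD94-NKG2A receptor of natural killer cells (ENSG00000204592.8, chromosome 6, 30489467 to 30494205, plus strand), had 1852, 1975 and 1933 normalised counts at 72 h, against 1749.8, 1895 and 1849 at 30 h. The groups overlapped, and the log2 fold change was 0.069 ± 0.055 (SE) with adjusted p = 0.331. HLA-F, a chain known mostly from lymphoid cells (ENSG00000204642.13, chromosome 6, 29722775 to 29738528, plus strand), had 0, 4 and 2 reads at 72 h, against 2, 3 and 1 at 30 h. That is too few for a test or a fold, with both times near a floor of 3 reads. Exons of HLA-F overlap HLA-F-AS1 and RPL23AP1 on the opposite strand in GENCODE 29, and these too had at most 3.16 normalised counts in any library. The pseudogene AL645939.1, also on the opposite strand, overlaps 16.1% of HLA-F exons, and no values were found under its name.

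HLA-B and HLA-C had fold changes of opposite sign within the same libraries. Per kb of exons, HLA-C stood at 0.603, 0.648 and 0.650 of HLA-B at 72 h, against 0.755, 0.755 and 0.775 at 30 h. The ratios did not overlap and varied little within each time, but they were looked at after the single values were known, and 3 libraries against 3 allow no exact p below 0.1. Summed, HLA-B and HLA-C had a log2 fold change of 0.017 ± 0.058 (SE; adjusted p = 0.835). The split between the 2 rows is uncertain, because 35 bases of their exons overlap on the same strand in GENCODE 29, the class I genes are close copies of each other, and the alleles of a cell line differ from the reference to which reads were aligned. HLA-B, HLA-C and HLA-E together had 7622 to 7654 normalised counts at 72 h, against 7094 to 7822 at 30 h.

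B2M, the light chain of every class I molecule (ENSG00000166710.17, chromosome 15, 44711477 to 44718877, plus strand), was the most abundant of the 9. It had 12899, 12611 and 10428 normalised counts at 72 h, against 13395, 14286 and 12850.0 at 30 h. Replicate C was the lowest library of each time, and 72 h replicate A just exceeded 30 h replicate C. The log2 fold change was -0.18 ± 0.084 (SE), with an interval of -0.37 to 0.0098 and adjusted p = 0.107. It was called lower with no filter on low values (adjusted p = 0.000656) and with the letters as a replicate block (0.0362), while without 72 h replicate C the log2 fold change was -0.082 (adjusted p = 0.315). Per kb of exons, B2M stood at 0.800, 0.778 and 0.646 of the sum of HLA-B, HLA-C and HLA-E at 72 h, against 0.833, 0.857 and 0.850 at 30 h, with no overlap.

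**Figure D2:**
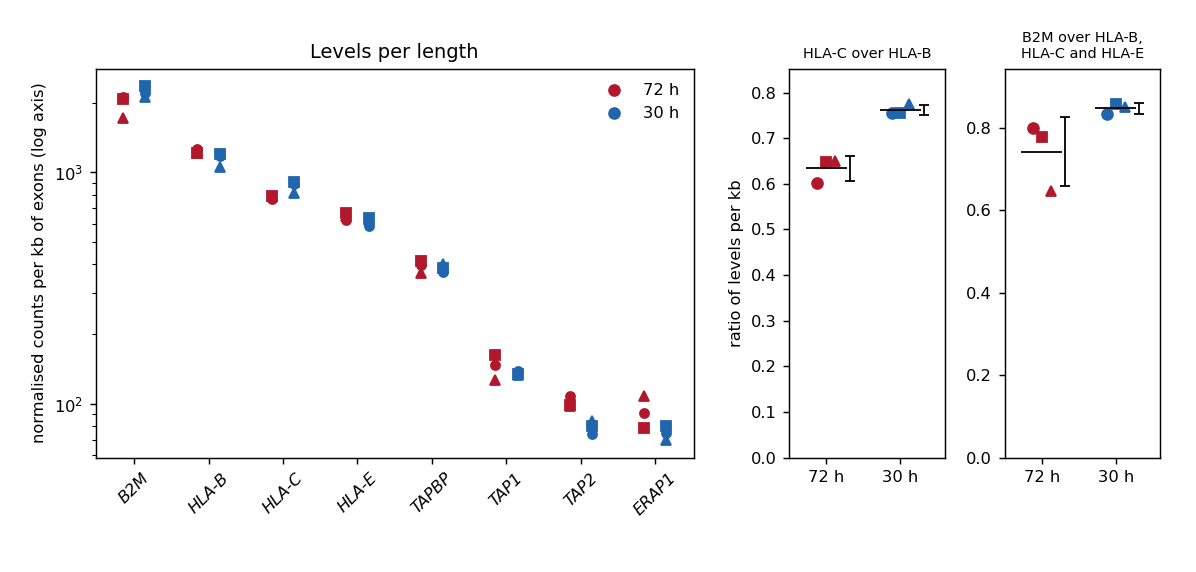
Left, normalised counts per kb of exons (log axis) of the 8 tested genes at 72 h (red) and 30 h (blue), ordered from B2M to ERAP1, one symbol per library (circle A, square B, triangle C). Right, ratios of such levels within each library with mean and SD: HLA-C over HLA-B lay at 0.603 to 0.650 at 72 h, against 0.755 to 0.775 at 30 h. B2M over the 3 heavy chains lay at 0.646 to 0.800 at 72 h, against 0.833 to 0.857 at 30 h. The level of these ratios depends on the exon lengths, which merge all annotated transcripts of a gene.

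TAP2, a subunit of the peptide transporter, was the member with the clearest change. TAP2 (ENSG00000204267.13, chromosome 6, 32821833 to 32838780, minus strand) had 689, 632 and 624 normalised counts at 72 h, against 474, 511 and 541 at 30 h. All libraries of 72 h were above all of 30 h. The log2 fold change was 0.35 ± 0.075 (SE), a fold between 1.14 and 1.43 by its 95% interval, with adjusted p = 0.00361, and it remained called under each of 17 alternatives (adjusted p up to 0.0219). In size this is an ordinary change, since 57.2% of tested genes changed by less. In GENCODE 29, 32.3% of its exonic bases also belong to AL669918.1, a gene on the same strand, so part of its reads is uncertain.

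TAP1, its partner (ENSG00000168394.10, chromosome 6, 32845209 to 32853978, minus strand), had 706, 779 and 610.5 normalised counts at 72 h, against 664, 646 and 637 at 30 h. The libraries of 72 h lay on both sides of the narrow range of 30 h. The log2 fold change was 0.099 ± 0.087 (SE), with an interval of -0.096 to 0.29 and adjusted p = 0.38. Per kb of exons, TAP2 stood at 0.733, 0.610 and 0.769 of TAP1 at 72 h, against 0.537, 0.595 and 0.639 at 30 h, and these ranges overlapped. The difference between their fold changes was not tested. Exons of TAP1 overlap PSMB8-AS1 on the opposite strand over 9.49% of their length, and PSMB8-AS1 had at most 24.4 normalised counts in any library.

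TAPBP, tapasin (ENSG00000231925.11, chromosome 6, 33299694 to 33314387, minus strand), had 2012, 2088 and 1856 normalised counts at 72 h, against 1869, 1951 and 2034 at 30 h. The groups overlapped throughout, and its log2 fold change of 0.024 ± 0.061 (SE; interval -0.11 to 0.16; adjusted p = 0.775) was the smallest of the 8. ERAP1 (ENSG00000164307.12, chromosome 5, 96760810 to 96808100, minus strand) had 723, 623 and 862 normalised counts at 72 h, against 597, 637 and 555 at 30 h. Replicates A and C of 72 h were above all of 30 h, and replicate B was not. The log2 fold change was 0.29 ± 0.11 (SE), with an interval of 0.038 to 0.55 and adjusted p = 0.0579. It was called higher in 4 of 17 alternatives, one of them without 72 h replicate B, where the log2 fold change was 0.41 (adjusted p = 0.00970). Exons of ERAP1 overlap the highly expressed CAST on the opposite strand over 3.76% of their length, and whether reads were counted by strand is not known from the sources used.

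**Figure D3:**
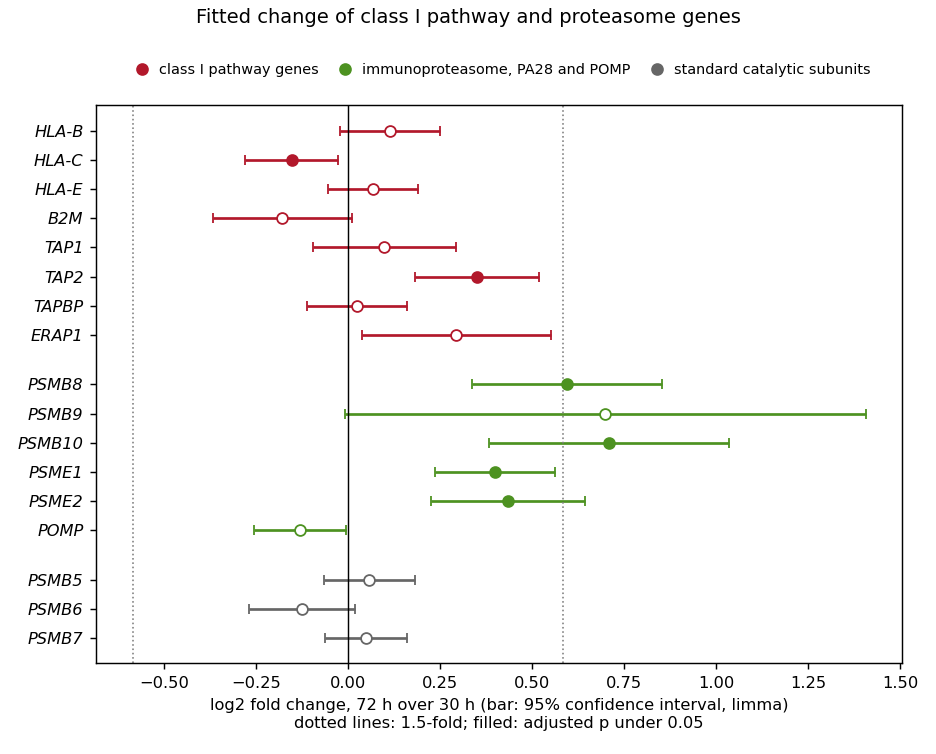
Fitted log2 fold changes (72 h over 30 h) with 95% confidence intervals for the 8 tested class I pathway genes (red), the immunoproteasome, PA28 and POMP genes (green) and the standard catalytic subunits (grey). Filled points had an adjusted p under 0.05 and dotted lines mark 1.5-fold. Every red interval lies between these lines, whereas PSMB8, PSMB9 and PSMB10 have point estimates past the right one, PSMB9 without a call.

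On the per-length scale of levels, the order of the means was the same at both times, and steep. The scale uses exon lengths merged over all annotated transcripts, from 2507 bases for HLA-C to 7945 for ERAP1. Levels of different genes can therefore be set side by side only roughly. B2M averaged 1971 ± 222 normalised counts per kb at 72 h and 2222 ± 119 at 30 h (SD, n = 3 each), HLA-B 1232 ± 29.4 and 1140.4 ± 79.0, HLA-C 780.3 ± 15.0 and 868 ± 48.0, and HLA-E 645 ± 21.1 and 615 ± 24.9. TAPBP followed at 393 ± 23.5 at 72 h and 386 ± 16.4 at 30 h, TAP1 at 145 ± 17.6 and 135 ± 2.84, TAP2 at 101 ± 5.51 and 79.6 ± 5.27, and ERAP1 at 92.7 ± 15.1 and 75.0 ± 5.18. TAP2 and ERAP1 were the only neighbours in this order whose libraries overlapped within a time, and they did so at both.

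A list of 6 genes covered the immunoproteasome, its assembly factor POMP and the activator PA28. Of these the test called 4 higher and 0 lower, and the median log2 fold change was 0.52. PSMB9 and POMP missed the threshold, with log2 fold changes of 0.70 and -0.13. POMP was lower at 72 h without overlap of libraries (adjusted p = 0.0771, limma). The calls in this and the following lists stand beside 23.6% higher and 25.0% lower among all genes tested. PSMB8, the catalytic subunit also called LMP7, whose gene lies beside TAP1 and TAP2, had 420.0, 427 and 334 normalised counts at 72 h, against 276, 271 and 231 at 30 h. PSMB10, another catalytic subunit, had 82.8, 91.6 and 96.5 at 72 h, against 49.7, 57.9 and 56.9 at 30 h. Neither gene's libraries overlapped between the times, with log2 fold changes of 0.60 ± 0.12 and 0.71 ± 0.15 (SE; adjusted p = 0.00212 and 0.00300, limma). PSME1 and PSME2, which encode the PA28 subunits, rose with log2 fold changes of 0.40 and 0.43. PSMB9, whose gene starts back to back with TAP1, had 69.5, 63.7 and 32.5 normalised counts at 72 h, against 40.0, 23.4 and 34.8 at 30 h, so replicate C of 72 h fell among those of 30 h (adjusted p = 0.0947).

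Of the 3 standard catalytic subunits that these replace (PSMB5, PSMB6 and PSMB7), 0 passed, with log2 fold changes of 0.058, -0.12 and 0.050. Per kb of exons PSMB8 stood at 0.077 to 0.101 of PSMB5 at 72 h, against 0.0566 to 0.0665 at 30 h, and so remained far below it at both times. PSMB10 stood at 0.0283 to 0.0340 of PSMB7 at 72 h, against 0.0173 to 0.0213 at 30 h. Exons of PSMB8 overlap PSMB8-AS1 on the opposite strand over 20.6% of their length, and 34.8% of those of PSMB10 overlap another gene on the same strand, so part of these reads is uncertain.

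**Figure D4:**
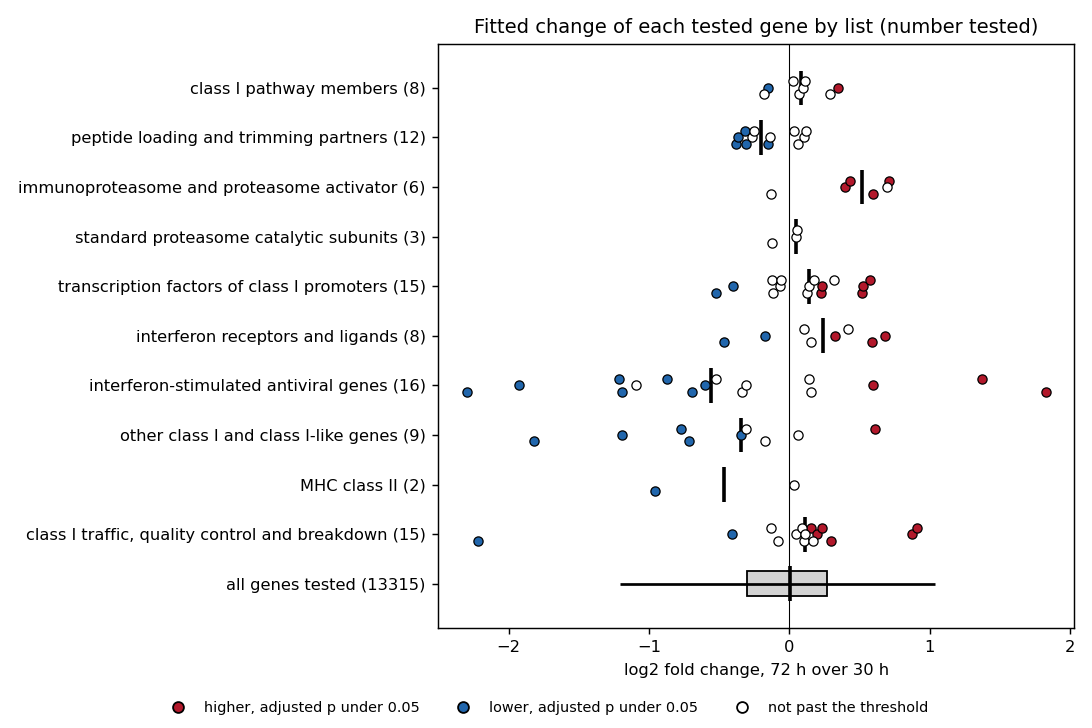
Log2 fold change (72 h over 30 h) of each tested gene in the 9 class I pathway genes and in the lists around them, with the number tested in brackets. Red and blue points had an adjusted p under 0.05, thick ticks are medians, and the grey box and line give the range between the quartiles and the middle 90% of all 13315 genes; the class I genes lie between -0.18 and 0.35.

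Partners of peptide loading and trimming included 5 genes that fell among the 12 tested, and 0 that rose. The median log2 fold change of the 12 was -0.20. CALR, the chaperone calreticulin of the loading complex, averaged 14118 ± 197 normalised counts at 72 h and 17521 ± 1457 at 30 h, a log2 fold change of -0.31 (adjusted p = 0.00360, limma). UGGT1, the glycoprotein folding sensor, fell with a log2 fold change of -0.36, LNPEP, an aminopeptidase of endosomes, with -0.38, TPP2, a cytosolic peptidase, with -0.32 and GANAB, a glucosidase, with -0.15. The call for GANAB was lost under 8 of 17 alternatives. PDIA3, the disulfide isomerase bound to tapasin, came close with -0.25 (adjusted p = 0.0526), and ERAP2, the sister enzyme of ERAP1, had 0.10 (0.332). These were named after their values were seen.

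Transcription factors of class I promoters gave 5 calls higher and 2 lower among 15 tested, a share near the 48.6% of all genes called in either direction, and a median log2 fold change of 0.14. NFYA, a subunit of the Y box factor NF-Y, rose to 1353 ± 49.9 normalised counts at 72 h, against 909 ± 65.2 at 30 h. NFKB1, the NF-kB subunit p50, averaged 1162 ± 97.6 at 72 h and 808 ± 74.3 at 30 h. The log2 fold changes were 0.57 for NFYA and 0.52 for NFKB1 (adjusted p = 9.52e-05 and 0.000695, limma). NFYB fell with a log2 fold change of -0.40, and RFXAP, a subunit of the X box factor RFX, with -0.52, a call lost under 6 of 17 alternatives. NLRC5, named after its value was seen, had 333, 351 and 321 normalised counts at 72 h, against 314, 293 and 303 at 30 h. These did not overlap, but the log2 fold change of 0.14 did not pass (adjusted p = 0.158).

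Of 8 tested genes for interferon receptors, their kinases and ligands, 3 receptor chains were called higher and 2 kinases lower. IFNGR2, a chain of the receptor for interferon gamma, averaged 1265 ± 40.7 normalised counts at 72 h and 789 ± 25.9 at 30 h, and IFNGR1, the other chain, 744 ± 20.5 and 499 ± 77.4. IFNAR1, of the type I interferon receptor, rose with a log2 fold change of 0.33. The kinases JAK2 and TYK2 fell with -0.47 and -0.17, calls lost under 6 and 11 of 17 alternatives. IFNB1, IFNG and IFNL1 had 0 reads in each of the 6 libraries. IFNE, the interferon epsilon ligand, had 56.2, 48.8 and 59.8 normalised counts at 72 h, against 47.8, 40.6 and 34.8 at 30 h, without overlap, and its log2 fold change of 0.42 did not pass (adjusted p = 0.0868, limma). These 4 ligands were named after their values were seen. Of 23 interferon-stimulated antiviral genes, 16 were tested, of which 3 rose and 7 fell. DDX58, the RNA sensor RIG-I, averaged 236 ± 8.89 at 72 h and 434 ± 25.1 at 30 h, and IFIT3, USP18 and IFI44 also fell, whereas IFIH1, the sensor MDA5, rose with a log2 fold change of 1.37.

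Other class I and class I-like genes were mostly lower at 72 h, with 5 of 9 tested called lower, 1 called higher and a median log2 fold change of -0.35. MICB, a stress ligand of the receptor NKG2D, averaged 107 ± 35.3 normalised counts at 72 h and 236 ± 22.1 at 30 h, and its relative MICA 571 ± 46.4 and 726 ± 30.1. HFE, an iron regulator with a class I fold, fell with a log2 fold change of -0.77, and HLA-L, a class I pseudogene, with -0.72. PROCR, the endothelial protein C receptor and the gene of the list that rose, had a log2 fold change of 0.61. Class II genes were scarce: 2 of 11 had enough reads to be tested, and the 11 summed to 37.8 to 47.2 at 72 h, against 57.9 to 107 at 30 h. The highest sum was that of 30 h replicate A, which had 23.4 of HLA-DRA and 32.2 of CD74, against at most 1.74 and 6.33 in any other library.

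Genes of class I traffic, quality control and breakdown gave 6 calls higher and 2 lower among 15 tested, also a share near the 48.6% of all genes. MARCH4 and MARCH9, ubiquitin ligases that can remove class I molecules from the surface, went in opposite directions. MARCH4 averaged 118 ± 26.7 normalised counts at 72 h and 546 ± 63.1 at 30 h, a log2 fold change of -2.22 (adjusted p = 1.05e-05, limma), and MARCH9 154 ± 23.5 and 83.4 ± 11.9, a log2 fold change of 0.88. SUSD6, a membrane protein that in human cells takes part in class I breakdown, rose with 0.91 and SYVN1, a ubiquitin ligase of the endoplasmic reticulum, with 0.30, a call lost under 5 of 17 alternatives. BCAP29, a protein of export from the endoplasmic reticulum, fell with -0.41.

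Averaged over the 8 tested members after standardising each, the profile was 0.34, 0.53 and -0.16 SD at 72 h in replicates A, B and C, against -0.42, 0.17 and -0.45 SD at 30 h. It thus followed the time only loosely, since 72 h replicate C lay below 30 h replicate B. The 3 tested genes outside the list with the most similar log2 values over the 6 libraries were SNX2, GCDH and TPGS1, with Pearson correlations of 0.994, 0.994 and 0.979. They had log2 fold changes of 0.21, 0.15 and 0.12, none past the threshold, and such values are the highest picked from all genes tested.

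**Figure D5:**
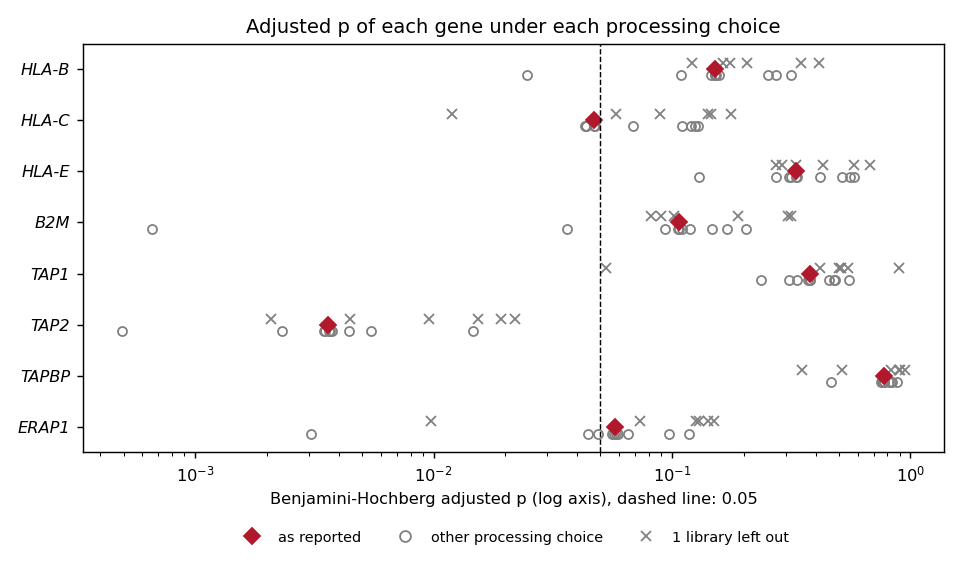
Adjusted p (log axis) of the 8 tested class I pathway genes as reported (red diamonds), under other processing choices (circles) and with 1 library left out (crosses), with a dashed line at 0.05. TAP2 stays left of the line under each choice shown, whereas HLA-B, HLA-C, B2M and ERAP1 have points on both sides.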

How the data were processed

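RNA libraries of 6 samples were made with a KAPA mRNA kit, per the labels' protocols. Per the submitters' processing notes, the authors used Trimmomatic 0.35, STAR 2.5.1b with GRCh38 (hg38) and DESeq2 1.18.1; which read counter, annotation and strand setting they used is not stated in those sources. Signal values in the deposited table are read counts scaled by the authors with 1 size factor per library. In each library 100% of them were whole multiples, within 0.01, of the smallest value above 0, which gave back whole reads. The authors' own log2 fold changes, standard errors, Wald scores and p-values, per the file headers, were used where named and as 1 alternative. No further per-sample columns were present (0).

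The 13315 genes that reached 10 normalised counts in 3 or more libraries were compared between 72 h and 30 h on log2(value + 1) with limma 3.58.1 (trend and robust) in R 4.3.3, with Benjamini-Hochberg adjustment over all of them and a threshold of 0.05. Fold changes are on that scale. The steps were tested on simulated data. Replicates differed by more than sampling noise (chi-square over degrees of freedom between 3.34 and 16.7 within a time, and between 114 and 168 across times) and were each counted. Alternatives were other pseudocounts, filters, normalisation and fits, edgeR 4.0.16 (TMM) and DESeq2 1.42.0 on the whole reads, a replicate block and leaving out each library. Coordinates are from the deposited table, and exon lengths and overlaps from GENCODE 29, with the exons of all transcripts of a gene merged. The members and lists were chosen with earlier results of these data known. Every member was named, and in each list up to 5 called genes, by size of change, whose mean reached 50 at 1 of the times, except 1 gene that is not reported here. The 3 most similar genes also needed a mean of at least 50. Counting intervals were not used, since PCR copies cannot be told from separate molecules.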

Additional observations from a re-analysis of the deposited data

How the results depend on the processing

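Of the 129 repeats of a member's value under another choice, 110 kept their direction and side of the threshold, 10 lost the call, 7 gained one and 2 changed sign. TAP2 was called in each. The count of members called higher was 1, and became 2 with no filter on low values, 3 with quantile normalisation, which added HLA-B (adjusted p = 0.0246) and ERAP1 (0.0445), 2 with DESeq2, and 1 to 2 with 1 library left out. The count called lower was 1 (HLA-C), and became 0 with quantile normalisation, without the trend and robust options, with DESeq2 and in the authors' deposited table. It became 2 with the replicate block, and 0 to 1 with 1 library left out. With no filter on low values it stayed at 1, but the gene was B2M, while HLA-C lost its call (adjusted p = 0.0685, limma). HLA-C was called in 6 of 16 alternatives. The cause was not tested. TAPBP changed sign without 72 h replicate B or 30 h replicate A, within a range of -0.013 to 0.072 on the log2 scale with 1 library left out, never past the threshold.

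The replicate letters were not taken as pairs. After removal of group means, libraries of 1 letter correlated at 0.00696 for A, 0.172 for B and 0.185 for C, and 2 of 3 matched their own letter best. With the letter as a replicate block the fit called 3271 genes higher and 3452 lower, against 3144 and 3328 without it, and it added the call for B2M, while TYK2 lost its own (adjusted p = 0.0533).

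Of the 34 listed genes that the rule selects, 29 were called under each alternative and 5 lost the call under at least 1. Counts over all genes stayed within 1.5 times under each alternative. With 3 libraries a time, the intervals given show the changes that the data leave possible. The alternative of summing repeated rows of a symbol was not run, as 0 were repeated. Summing HLA-B and HLA-C was added after the data were seen. That fit is counted among the 17 alternatives given for other genes, although it leaves their own values unchanged.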
